A study of Gallus gallus with 54 samples.

Results

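The gene expression of chicken heart was set against that of breast muscle in the 36 libraries whose titles name either tissue, out of 54 libraries in the series. There were 18 heart and 18 breast muscle libraries, chosen by title alone. Each tissue had 9 libraries of low altitude breeds, whose phenotype is labelled as adapted to heat, and 9 of high altitude breeds, labelled as not adapted; the titles call breast muscle meat. All were indigenous chickens of Ethiopia (Gallus gallus), and no treatment is labelled. Ages and sexes are not given in the sources used here. A code such as H1 or L1 is used in each tissue, but the labels do not say that a code is a single bird, so p-values here cover the variation among these libraries, which may be technical in part. The other 18 libraries, from spleen, served only to place the genes that separate heart from breast muscle.

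Heart and breast muscle are both striated muscle, and both shorten by sliding actin and myosin filaments, but they build the sarcomere from partly different protein isoforms encoded by different genes. Heart muscle beats without rest and lives mainly on oxidative metabolism in mitochondria. The breast muscle of chickens is made largely of fast, glycolytic fibres that work in short bursts. Genes for the sarcomere, for calcium release and uptake, for energy metabolism and for the transcription factors of each lineage are therefore known to differ between these tissues. The deposited files list Ensembl identifiers without symbols, and none of them could be given a symbol (0 of 24881 were found among the 25635 chicken genes of the reference table). Genes are thus described here by identifier, level and size of change, without roles, and the labelled tissues could not be checked against named markers.

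The 18 hearts held 12.4 to 15.2 M (mega) counts and the 18 breast muscles 9.31 to 13.1 M. All pairs of libraries within heart had a Spearman correlation of at least 0.847 over the genes tested, and within breast muscle of at least 0.862. The highest correlation between a heart and a breast muscle was 0.782. The first principal component held 70% of the variance of log2 CPM (counts per M counts of a library), here scaled by TMM factors. It had all hearts on one side and all breast muscles on the other. The median gene had 45.3% of its variance between the tissues and 1.13% between the altitudes. Breast muscles H1, H4, H7 and H8 stood apart on the second component (6.2% of the variance), and without them the lowest correlation within breast muscle was 0.933. The hearts of the same codes lay furthest to the same side among hearts, at 18.21 to 34.41, next to 8.723 in heart L8. Leave-outs of these codes below keep the hearts, unless both tissues are named. Heart H3 stood apart in genes of breast muscle. Where a result was also computed without these libraries, that value is given beside it.

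Most genes differed between heart and breast muscle. In whole tissue, fewer cells of a type and less RNA per cell cannot be told apart as the source of a lower count. Of the 12373 genes tested with altitude as a covariate, 9756 passed the threshold, an adjusted p under 0.05 in edgeR's quasi-likelihood test, which is 78.8% of them. Higher in heart were 5191 genes (42.0%), and higher in breast muscle 4565 (36.9%). With a log2 fold change (heart over breast muscle) of at least 1 added to the threshold, 6375 genes were left (51.5%), 3793 higher in heart (30.7%) and 2582 higher in breast muscle (20.9%). With a log2 fold change of at least 5, a 32-fold difference, 514 were left (4.15%). These 514, called the 32-fold genes here, were 331 genes of the heart side (2.68%) and 183 of the muscle side (1.48%). At a log2 fold change of at least 8 there were 94 heart-side and 87 muscle-side genes, and at 10 or more 41 and 29. The heart side thus held more genes at each of these sizes, and the sides were nearest in number at 8 or more. Without breast muscles H1, H4, H7 and H8, 10193 genes passed the threshold and 6809 did with a log2 fold change of at least 1. At 32-fold or more there were then 612, 418 heart-side and 194 muscle-side. Without these codes in both tissues the numbers were 9839, 6581 and 584 (386 heart-side and 198 muscle-side). Each of these fits applied the filter on low counts anew. Directions are relative to a scaling of each library: with upper quartile factors the median log2 fold change of all genes moved to 0.35, against 0.10 with the TMM factors used, and 5980 genes were then higher in heart and 3719 higher in breast muscle.

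**Figure D1:**
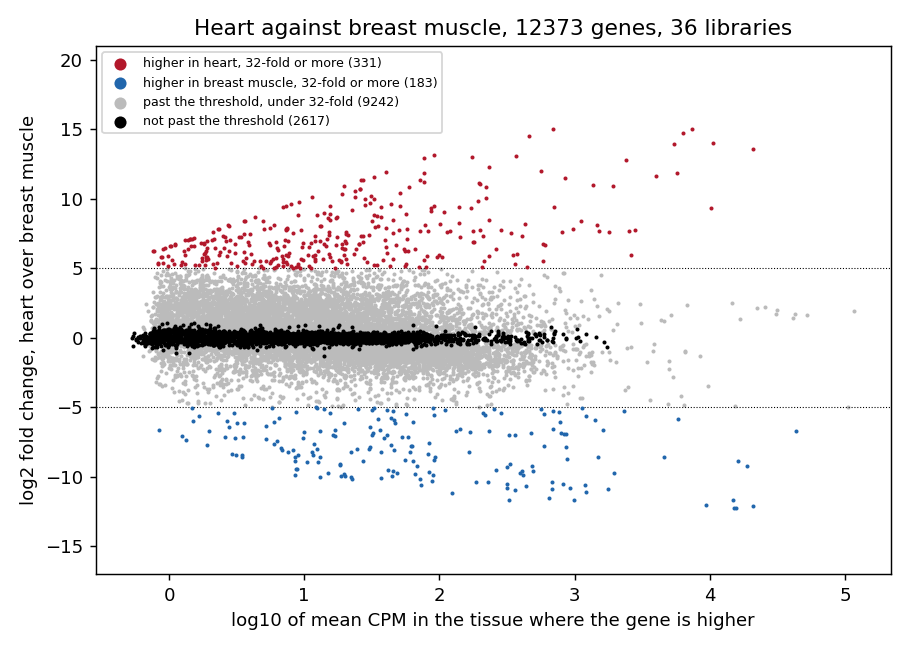
Each point is a gene, with the log10 of its mean CPM in the tissue where it is higher on the x axis and its fitted log2 fold change, heart over breast muscle, on the y axis, over 36 libraries. Red points are the 331 genes at least 32-fold higher in heart, blue points the 183 at least 32-fold higher in breast muscle, grey points pass the threshold below that size, black points do not pass, and dotted lines mark a log2 fold change of 5 in each direction.

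On the heart side, the 32-fold gene with the most counts was ENSGALG00000015358. It had 9250 to 28000 CPM in low altitude hearts (median 22400, n = 9) and 10500 to 26100 in high altitude hearts (median 20700, n = 9). In breast muscle it had 0.0849 to 15.1 CPM at low altitude (median 0.382) and 0 to 7.74 at high altitude (median 0.163). Every heart was thus far above every breast muscle. The log2 fold change was 13.61 (SE 0.78, edgeR adjusted p = 3.07e-18). Of the 346 counts of this gene in all breast muscles, 170 came from library L9, 72 from H1 and 46 from H2. Without breast muscle L9 the log2 fold change was 14.47.

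The largest fitted change among genes with at least 20 CPM in the higher tissue was that of ENSGALG00000010812 in the fit with altitude as covariate. Its value, 15.01, was shared after rounding by a gene among the 20 with the most counts in heart. With the code as a replicate block ENSGALG00000010812 stood at 14.97, against 14.98 for ENSGALG00000015358. With limma-voom it stood at 13.49 against 15.20, so the order of these genes depends on the fit. Hearts had 195 to 1060 CPM at low altitude (median 783) and 240 to 955 at high altitude (median 847). Of the breast muscles, all 9 of high altitude and 8 of the 9 of low altitude had 0 counts, and L9 had 2 counts. Summed over libraries, the gene had 176303 counts in heart and 2 in breast muscle, a ratio of 72700 per count sequenced, with a 95% exact binomial interval of 20100 to 600000 that covers counting error only. At high altitude, where breast muscle had no count, hearts were 22200-fold higher against a floor of 3 counts over the group. The lower limit of the exact binomial interval was 18000 there. The fitted log2 fold change was 15.01 (SE 0.38, edgeR adjusted p = 4.76e-29), and its size depends on the prior count that the fit adds. With 2 counts in all breast muscles, this SE is no measure of how well the size is known. Without breast muscle L9 the fitted change was 16.03, which is no bound either. Breast muscle L9, the library with the most counts of the other named heart-side gene, was also the only breast muscle with counts of this gene.

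On the muscle side, the 32-fold gene with the most counts was ENSGALG00000011086. Hearts had 55.8 to 1350 CPM at low altitude (median 391) and 61.8 to 1180 at high altitude (median 321). Breast muscles had 27700 to 78600 CPM at low altitude (median 56300) and 1060 to 62600 at high altitude (median 39300). Every heart thus carried this gene at over 50 CPM, and it was the only one of the 4 named genes whose libraries overlapped, because breast muscle H1 at 1060 CPM lay below the highest hearts. The log2 fold change was -6.68 (SE 0.55, edgeR adjusted p = 9e-14), and -7.01 without breast muscles H1, H4, H7 and H8.

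Among muscle-side genes with at least 20 CPM in breast muscle, ENSGALG00000006591 had the largest change in the fit with altitude as covariate. Within each altitude another gene had a larger fitted change. ENSGALG00000006591 had 0.0662 to 4.64 CPM in low altitude hearts (median 0.21) and 0.0658 to 116 in high altitude hearts (median 0.235). In breast muscle it had 12400 to 21700 CPM at low altitude (median 17200) and 2390 to 23500 at high altitude (median 16900). The 116 CPM, or 1616 counts, belonged to heart H3, and the next highest heart of high altitude had 25 counts. The log2 fold change was -12.24 (SE 1.29, edgeR adjusted p = 7.79e-11), and -14.95 without heart H3.

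**Figure D2:**
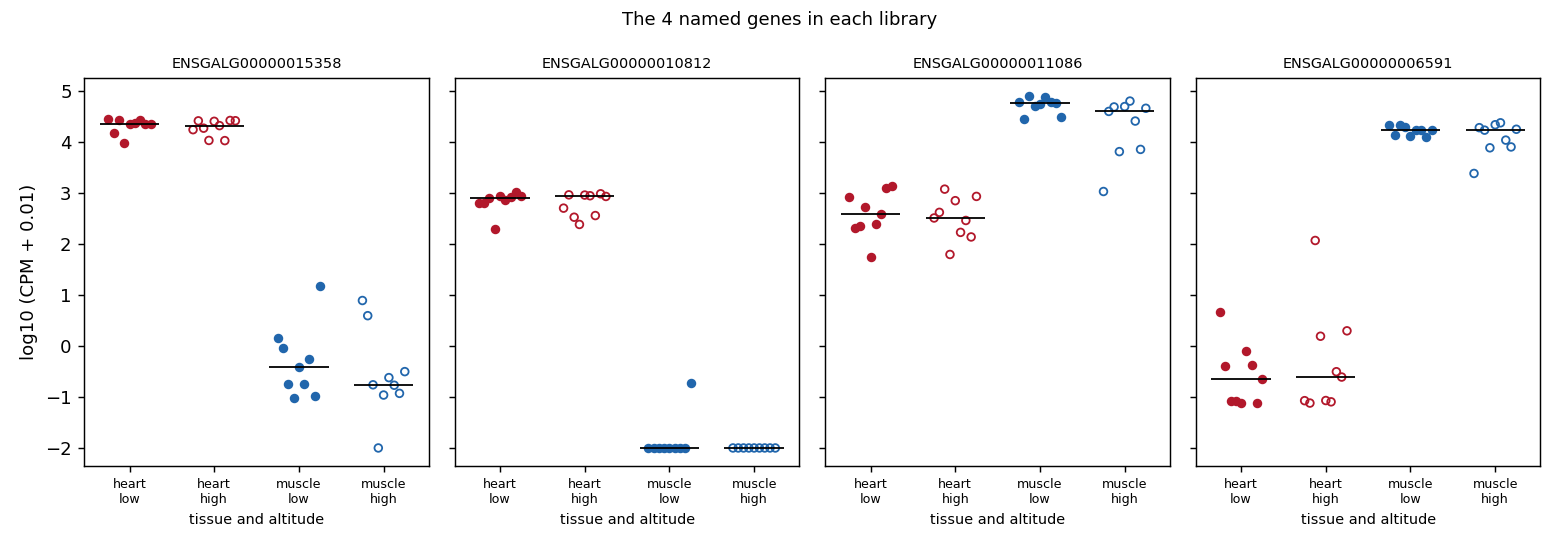
Each point is a library, with log10 of CPM + 0.01 on the y axis, for the 4 named genes in 9 libraries per tissue and altitude; red is heart, blue breast muscle, filled low altitude, open high altitude, and lines are medians. ENSGALG00000006591 shows heart H3 at 116 CPM above the other hearts, and ENSGALG00000010812 shows breast muscle L9 as the only breast muscle with counts.

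How cleanly the 514 genes separated the libraries depended on the measure and on a few libraries, mainly on the muscle side. Among all genes tested, every heart was above every breast muscle for 1267 genes (10.2%), and every breast muscle above every heart for 896 (7.24%). Of the 331 heart-side genes, 307 had no overlap between the libraries, and of the 183 muscle-side genes, 159 had none. The libraries used for this count are those that chose the genes, so it is a description. A stricter count asked that the lowest library of the higher tissue be at least 32 times the highest library of the other, with the highest library of the other tissue taken at no less than 3 counts. It was met by 53 heart-side and 19 muscle-side genes. On the muscle side it was met by 38 genes without heart H3, by 31 without breast muscle H1, by 58 without breast muscles H1, H4, H7 and H8, and by 68 without all 5. Leaving out any other single library gave 19 or 20. On the heart side it was met by 53 to 59 genes whichever single library was left out, and by 60 without those 4 breast muscles. As a share of the 331 and 183 genes, the strict count was larger on the heart side with all libraries. Without those 4 breast muscles that share was larger on the muscle side. The heart side was not counted without all 5.

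The 32-fold genes were more frequent among genes with many counts. Levels were read as mean CPM in the tissue where a gene is higher, and they are not corrected for gene length, which was not used here. Of 126 genes at 1000 CPM or more, 30.2% were 32-fold genes, 18 of the heart side and 20 of the muscle side. Of 1390 genes from 100 to 1000 CPM it was 6.62% (45 heart-side, 47 muscle-side). Of 5802 genes from 10 to 100 CPM it was 3.48% (127 and 75), and of 4651 genes from 1 to 10 CPM it was 3.66% (130 and 40). At high levels the sides were of nearly equal number, and the heart side was in excess at low levels. The same turn was seen for all genes past the threshold: from 1 to 10 CPM, 2523 were higher in heart and 1039 in breast muscle, while from 100 to 1000 CPM 383 were higher in heart and 838 in breast muscle. Of the heart-side genes, 34 had 0 counts in all 18 breast muscles, and of the muscle-side genes 9 had 0 counts in all 18 hearts. A gene at 0 in a tissue passed the filter on low counts through the other tissue alone, so these numbers are a description. Breast muscle libraries were shallower, and more heart-side than muscle-side genes lay from 1 to 10 CPM. The part of depth and level in these numbers was not tested.

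A few genes carried most of the counts of each side. The 331 heart-side genes held 11% of heart counts on average, and the 20 of them with the most counts held 83.6% of that share. The 183 muscle-side genes held 20.5% of breast muscle counts on average, and the 20 with the most counts held 87.6% of it. Both shares are of the libraries that chose the genes. For a share not fixed by that choice, genes were chosen at one altitude and measured at the other. The 347 heart-side and 181 muscle-side genes of the high altitude libraries were measured at low altitude. There the heart-side genes held 11.5% ± 1.87 of heart counts and 0.0293% ± 0.0129 of breast muscle counts (SD, n = 9 each). The muscle-side genes held 0.596% ± 0.318 of heart counts and 33.9% ± 5.43 of breast muscle counts. The 356 and 195 genes of the low altitude libraries were measured at high altitude. There the heart-side genes held 10.6% ± 1.62 of heart and 0.0394% ± 0.0463 of breast muscle counts, and the muscle-side genes 0.122% ± 0.0663 of heart and 16.7% ± 7.75 of breast muscle counts (SD, n = 9 each). The share of muscle-side genes was 4.64% in breast muscle H1, 8.12% in H8, 10.4% in H4 and 13.2% in H7, and it lay between 20.1% and 25.1% in the other 5. In each set of libraries the groups did not overlap. The gene sets differ between the altitudes, so these shares compare tissues and not altitudes.

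The genes with the most counts in heart were only in part heart-side genes. Of the 20 with the most counts, 7 were 32-fold genes (log2 fold change 9.35 to 15.01), and they held 3.69% to 9.41% of the counts of a heart (median 6.75%, n = 18) and at most 0.014% of those of a breast muscle. The other 13 were higher in heart by a log2 fold change of 1.24 to 2.47. Together these 13 held 26.2% to 56.5% of heart counts (median 42.9%) and 6.6% to 15.1% of breast muscle counts (median 9.61%). In spleen they held 2.24% to 7.99% of the counts (median 4.71%). These are sums, and their split over the 13 genes is not given here. Of the 20 genes with the most counts in breast muscle, 8 were 32-fold genes (log2 fold change -12.24 to -6.68). They held 0.0102% to 0.199% of heart counts (median 0.0461%) and 1.67% to 24.1% of breast muscle counts (median 17.7%). Among the 100 genes with the most counts, 41 were the same in both tissues. These lists were drawn up after the values were seen.

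The 10 leading genes of a library held a larger share of the counts in heart, while 3 other measures of concentration did not pass, and more genes were detected in heart. The 10 genes with the most counts held 41.4% ± 7.52 of the counts in heart and 30.6% ± 8.24 in breast muscle (SD, n = 18 each; two-sided permutation p = 0.0003, adjusted over 7 library measures 0.000525). The difference was also seen at low altitude (42.8% ± 7.17 against 32.7% ± 5.57, exact permutation p = 0.00473, n = 9 each) and at high altitude (40.1% ± 8.05 against 28.6% ± 10.2, exact permutation p = 0.0168, n = 9 each). Without breast muscles H1, H4, H7 and H8 it was 7.54 percentage points in place of 10.8 (permutation p = 0.00274). The groups overlapped, with 10 of 18 hearts above the highest breast muscle. The share of the 100 leading genes, 61.0% ± 6.07 in heart and 56.1% ± 9.64 in breast muscle, did not pass (permutation p = 0.0735), and nor did that of the leading gene alone (permutation p = 0.321). The number of genes holding 50% of the counts had a median of 18 in heart and 32 in breast muscle, and its means of 33.9 and 78.1 did not pass either (permutation p = 0.0652). Without breast muscles H1, H4, H7 and H8 the breast muscle mean was 37.2, a difference of -3.27 genes (permutation p = 0.751). The hearts of these codes were kept, here and for the share of the 10 leading genes. They had the highest numbers among hearts, 75 in H1, 138 in H4, 51 in H7 and 61 in H8, next to 48 in L3. The leave-out is thus one-sided, and the differences without these codes in both tissues were not computed.

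At least 1 CPM was reached by 11250 ± 472 genes in heart and by 9858 ± 505 in breast muscle (SD, n = 18 each; permutation p = 2e-05, the smallest that 100000 resamples can give two-sided). Heart libraries were deeper, with 14.0 ± 0.943 M counts against 11.6 ± 1.20 M in breast muscle (permutation p = 2e-05). Thinned to 9 M counts per library, 11167 ± 472 genes in heart and 9775 ± 506 in breast muscle had 10 counts or more (permutation p = 2e-05). By this thinned count, all 9 hearts lay above all 9 breast muscles at low altitude (exact permutation p = 4.11e-05), and 8 of 9 hearts did at high altitude (exact permutation p = 8.23e-05). The overlap at high altitude was between breast muscle H1, with 11020 genes, and heart H3, with 10364. Without breast muscles H1, H4, H7 and H8 all 18 hearts lay above all 14 breast muscles (permutation p = 2e-05).

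**Figure D3:**
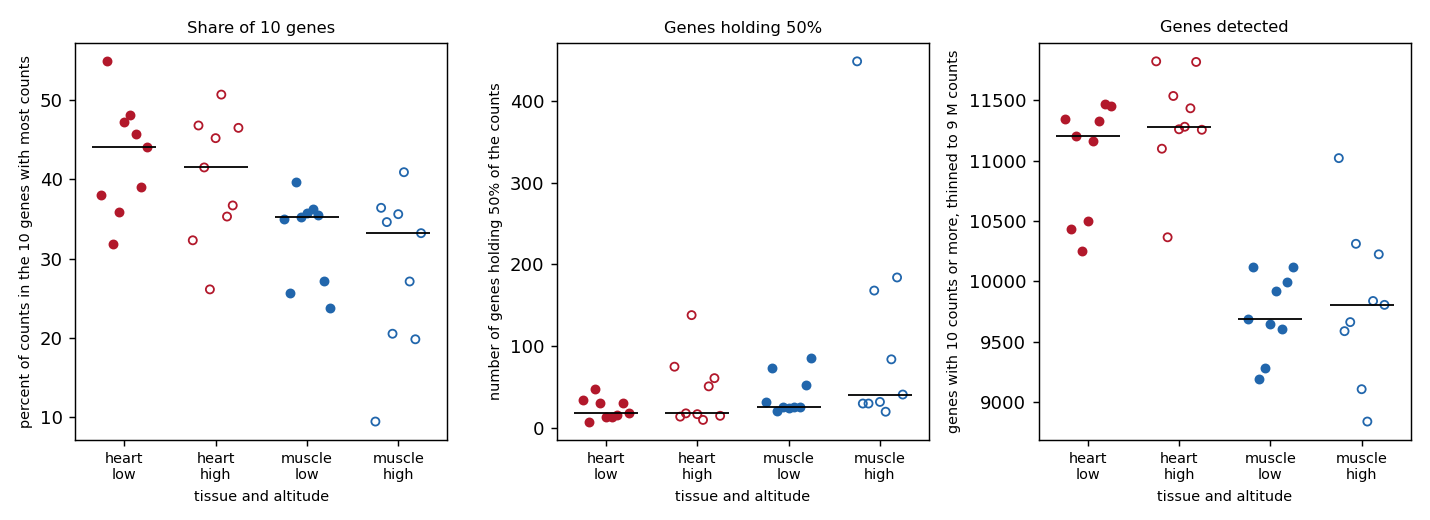
Each point is a library, 9 per tissue and altitude, with the share of counts in its 10 leading genes (percent, left), the number of genes that hold 50% of its counts (middle) and the number of genes with at least 10 counts after thinning to 9 M counts (right); red is heart, blue breast muscle, filled low altitude, open high altitude, and lines are medians. The medians of the hearts lie higher on the left and on the right, with some overlap, and breast muscle H1 is at 448 genes in the middle panel.

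The difference between heart and breast muscle was next taken within each altitude. The low and high altitude comparisons shared no library, and the same 12373 genes were tested in both. At low altitude 8845 genes passed the threshold (71.5%), 4880 higher in heart (39.4%) and 3965 higher in breast muscle (32%). At high altitude 8551 passed (69.1%), 4496 higher in heart (36.3%) and 4055 higher in breast muscle (32.8%). In both altitudes and in the same direction there were 7515 genes, 85% of those past the threshold at low altitude and 87.9% of those at high altitude. Past the threshold in both with opposite directions were 9 genes. With a log2 fold change of at least 1 as well, 6240 genes were left at low altitude (50.4%; 30.6% higher in heart, 19.8% higher in breast muscle) and 6470 at high altitude (52.3%; 30.1% and 22.2%). Across genes, which are not independent replicates, the log2 fold changes of the altitudes had a Pearson r of 0.96 and a Spearman rho of 0.944.

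The 32-fold genes, 551 at low altitude (4.45%) and 528 at high altitude (4.27%), were mostly shared by the altitudes. On the heart side there were 356 at low altitude (2.88% of genes tested) and 347 at high altitude (2.80%), with 300 in both, 84.3% of those at low altitude and 86.5% of those at high altitude. On the muscle side there were 195 at low (1.58%) and 181 at high altitude (1.46%), with 167 in both, 85.6% of those at low altitude and 92.3% of those at high altitude. Of the 356 heart-side genes of low altitude, 355 passed the threshold in the same direction at high altitude, and of the 347 of high altitude, all 347 did at low altitude. Of the 195 muscle-side genes of low altitude 194 did so at high altitude, and of the 181 of high altitude 180 did so at low altitude. Of all genes tested, the shares past the threshold were those given above, 36.3% higher in heart and 32.8% higher in breast muscle at high altitude. Without breast muscles H1, H4, H7 and H8, 8658 of the same genes tested passed at high altitude. At 32-fold or more there were then 659, 467 heart-side and 192 muscle-side.

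The size of the change at high altitude depended on the libraries that stood apart, mainly on the muscle side. For the 356 heart-side genes chosen at low altitude, the median log2 fold change was 6.82 at low and 6.77 at high altitude. For the 195 muscle-side genes chosen at low altitude it was -7.82 at low and -7.23 at high altitude. Choosing the genes at high altitude instead gave -8.16 at low and -7.51 at high altitude for 181 genes, again with the larger size at low altitude. With genes at 0 counts in the lower tissue set to a bound of 3 counts over the group, the medians of the low altitude choice were 6.47 at low and 6.36 at high altitude for the heart side, and -7.56 and -7.04 for the muscle side. Without breast muscles H1, H4, H7 and H8 the muscle-side median at high altitude was -7.65, without heart H3 -7.51, and without all 5 -7.80. On the heart side the same leave-outs gave 7.17, 6.81 and 7.16 at high altitude. Leaving out the 4 breast muscles raised the heart-side genes at 0 counts in breast muscle from 56 to 103. With the bound of 3 counts, the leave-outs gave 6.46, 6.37 and 6.38 on the heart side, little changed from 6.36. On the muscle side they gave -7.37, -7.15 and -7.59 with the bound. With all libraries the altitudes were thus closer on the heart side. Without the 5 libraries they were closer on the muscle side, though with the bound the sides then differed little in this.

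The genes with the largest changes on the muscle side at low altitude had smaller changes at high altitude with all libraries. For 16 genes the log2 fold change at low altitude was -12 or below, from -15.26 to -12.26. At high altitude the same 16 stood between -10.53 and -8.98, with a median of -9.79 against -13.97 at low altitude. All 16 had their highest count among high altitude hearts in heart H3. Without heart H3 their median at high altitude was -13.40, and without breast muscles H1, H4, H7 and H8 it was -10.31. The limit of -12 was set after these values were seen. ENSGALG00000006591 was among them, with -14.76 (SE 0.85) at low altitude and -10.02 (SE 1.81) at high altitude, or -15.19 (SE 1.11) at high altitude without heart H3.

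**Figure D4:**
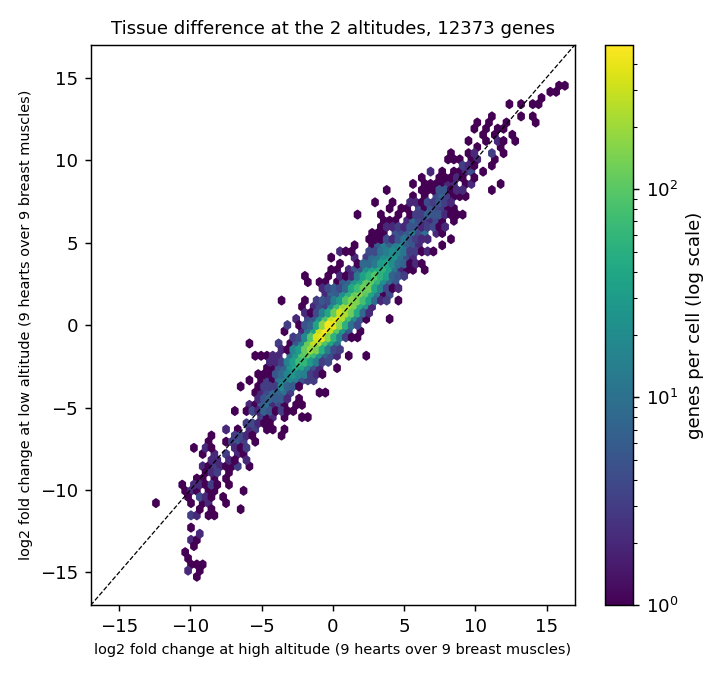
Log2 fold change of heart over breast muscle for 12373 genes, at high altitude on the x axis and at low altitude on the y axis, each from 9 hearts and 9 breast muscles; colour gives the number of genes per cell on a log scale and the dashed line marks equal changes. Most genes lie along the line (Pearson r 0.96 across genes), and 1126 differ by at least 1 between the altitudes. A group departs at the lower left, where 16 genes reach -12 or below at low altitude and -10.53 to -8.98 at high altitude.

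No gene passed the test of the difference itself. The interaction of tissue and altitude, low minus high, had 0 of 12373 genes past the threshold in edgeR's quasi-likelihood test (0%), with a smallest adjusted p of 0.103. In the same test 1330 genes (10.7%) had an unadjusted p under 0.05, where a share of about 0.05 would be expected without any interaction. That no gene passed thus does not show equal changes at the altitudes. DESeq2 called 80 genes. Without heart H3 the smallest edgeR adjusted p was 0.0687 and 1581 genes had an unadjusted p under 0.05, and without breast muscles H1, H4, H7 and H8 it was 0.18 with 1469 genes. The fitted changes at the altitudes differed by at least 1 on the log2 scale for 1126 genes (9.1%), of which 226 had opposite signs. For the named genes the interactions were -0.51 for ENSGALG00000015358 (edgeR adjusted p = 0.895), -1.36 for ENSGALG00000010812 (0.614), -0.50 for ENSGALG00000011086 (0.879) and -4.75 for ENSGALG00000006591 (0.236).

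Each library was then placed by the mean log2 CPM of the heart-side and of the muscle-side genes chosen at the other altitude. The heart-side mean ran from 4.05 to 4.52 in low altitude hearts (median 4.38) and from 3.76 to 4.39 in high altitude hearts (median 4.21). In breast muscle it ran from -1.69 to -1.35 at low altitude and from -1.96 to -1.17 at high altitude. The tissues were far apart at each altitude. The muscle-side mean ran from -1.08 to -0.63 in low altitude hearts and from -0.92 to 0.62 in high altitude hearts. It ran from 6.32 to 6.71 in low altitude breast muscles (median 6.52) and from 4.0 to 6.36 in high altitude breast muscles (median 6.03). The 4 breast muscles that stood apart held the lowest muscle-side means, 4.0 in H1, 4.73 in H8, 5.14 in H7 and 5.41 in H4, where the next lowest library of high altitude had 6.03. Of these 4, H1 and H4 also had the highest heart-side means of their group, -1.17 and -1.50, next to -1.51 in H2, while H7 and H8 had -1.79 and -1.67, within the range of the others.

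Heart H3 had a muscle-side mean of 0.62, where the other 8 high altitude hearts lay between -0.92 and -0.74. Of the 195 muscle-side genes chosen at low altitude, 83 had their highest CPM among the 9 high altitude hearts in H3. The next library, H1, was counted for 37, which include the 10 genes at 0 counts in all 9 of these hearts. For the 22 of these genes with at least 1000 CPM in low altitude breast muscle, H3 was above the median of the other hearts in 21. Its excess over that median was 0.629% of the low altitude breast muscle level at the median gene (quartiles 0.528% and 1.03%). In the other 8 hearts the median excess lay between -0.0221% and 0.00596%. Its heart-side mean of 4.38 was within the range of the other hearts. The part of this library in the smaller changes at high altitude is given by the values without it, above.

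**Figure D5:**
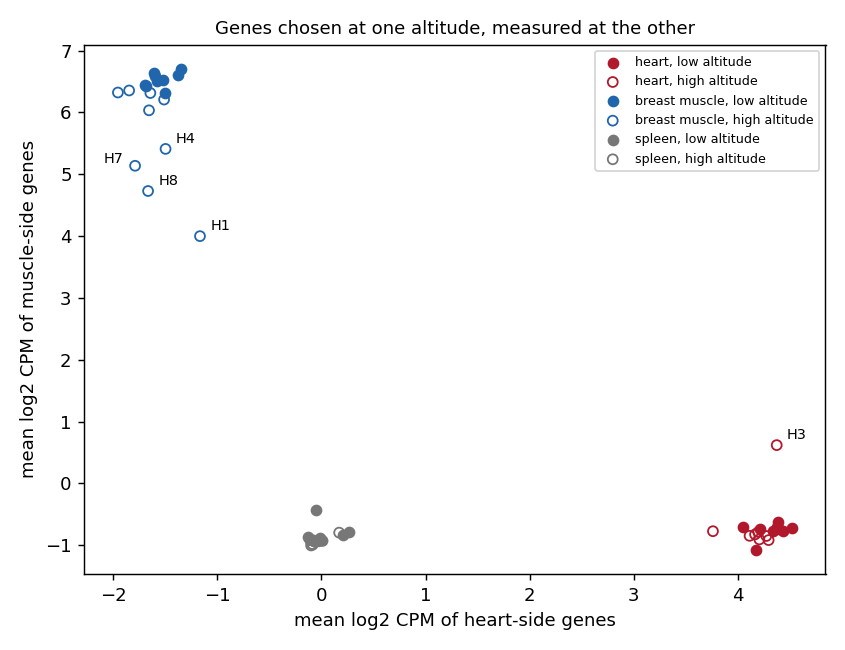
Each point is a library, with the mean log2 CPM of heart-side genes on the x axis and of muscle-side genes on the y axis, genes being chosen at the altitude the library does not belong to; red is heart, blue breast muscle, grey spleen, filled low altitude, open high altitude. Hearts lie at the lower right, breast muscles at the upper left, and the labelled libraries are heart H3 and breast muscles H1, H4, H7 and H8.

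The spread between libraries within a group differed by tissue at high altitude. The median gene had an SD of log2 CPM of 0.51 in low altitude hearts, 0.448 in high altitude hearts, 0.462 in low altitude and 0.655 in high altitude breast muscles (n = 9 each). At high altitude 21.9% of genes varied more in heart than in breast muscle, against 57.6% at low altitude. Without breast muscles H1, H4, H7 and H8 the median SD of high altitude breast muscle was 0.508 over 5 libraries. The muscle-side 32-fold genes had a median SD of 1.16 in high altitude breast muscle, 0.585 without those 4 libraries and 0.549 at low altitude. The heart-side genes had a median SD of 0.706 in low and 0.669 in high altitude hearts. No test was made of these spreads.

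Some genes were close in heart and breast muscle. For 3996 genes (32.3%) the 95% interval of the log2 fold change lay within -1 and 1, and for 977 (7.90%) within -0.5 and 0.5. These 977 held 3.37% to 5.67% of the counts of a heart (median 4.04%) and 2.99% to 7.10% of those of a breast muscle (median 3.54%). Of the 977, 51 passed the threshold with changes of that small size. Which genes are close depends on the scaling, as the median log2 fold change of all genes was 0.35 with upper quartile factors, against 0.10 with TMM factors. The close genes were not counted again with other factors.

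The 18 spleens, which took no part in the comparison, gave another tissue to set the genes against. Of the 183 muscle-side 32-fold genes, 176 had a spleen mean log2 CPM nearer to heart than to breast muscle, and 162 were less than 2 log2 units above heart in spleen. Of the 331 heart-side genes, 244 were nearer to breast muscle in spleen and 87 nearer to heart, and 19 were higher in spleen than in heart. For changes of 1 to 5 on the log2 scale the same was counted. Of 3462 such genes higher in heart, 2414 (69.7%) had a spleen level nearer to heart, and in 1739 spleen was above both. Of 2399 such genes higher in breast muscle, 527 (22.0%) had a spleen level nearer to breast muscle, and in 218 spleen was above both. On both sides of this range, spleen was thus more often nearer to heart than to breast muscle by CPM per deposited total, without TMM scaling. Leading genes take unlike shares of that total. The 13 leading heart genes under 32-fold held a median of 42.9% of heart counts and 4.71% of spleen counts. The CPM of the other genes depends on this, and its part in the place of the spleen was not tested. In spleen the mean log2 CPM of heart-side genes ran from -0.13 to 0.27 at low and from -0.11 to 0.17 at high altitude, between the breast muscles and the hearts. The muscle-side mean ran from -0.94 to -0.44 and from -1.0 to -0.80, close to that of the hearts.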

How the data were processed

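Polyadenylated RNA was sequenced from total RNA with a stranded TruSeq kit, per the labels' protocols. The authors deposited, for each library, raw whole-number counts per gene identifier. HISAT2 2.0.4 and featureCounts are named in the submitters' processing notes beside FastQC, Cufflinks, Cuffdiff and the build galGal4, with no role or order. Strand setting and annotation release are not given in the sources used here: overlapping, antisense and near-identical genes are therefore uncertain. Of 24881 identifiers, 20514 had a count in at least 1 of the 36 libraries, and 0 matched the reference table (assembly GRCg7b). The 22 gene lists by symbol could therefore not be used.

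Counts were tested in R 4.3.3 with edgeR 4.0.16 (TMM factors, default filter on low counts, robust quasi-likelihood test, altitude as covariate), with Benjamini-Hochberg adjustment over all 12373 genes tested. The altitudes kept the genes and factors of the 36 libraries. SE is the change divided by the root of F. CPM is per deposited total. Log2 CPM has a prior count of 2, and was TMM-scaled for the principal components, correlations, variance shares and spreads. Overlap of libraries over all genes and the count of genes with a gap of 32 times were read from TMM-scaled CPM. Named were, per direction, the gene with the most counts at 32-fold or more and the largest change at 20 CPM or more. Library values were compared by permutation tests. The alternatives used DESeq2 1.42.0 and limma 3.58.1 as well. Methods were tested on simulated data. Members, lists and tests were chosen with earlier results of these data known.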

Additional observations from a re-analysis of the deposited data

Results flagged for a closer look

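For 13 measures, the 9 values of each of the 4 groups were searched for a library far from the rest, whose gap to its neighbour exceeded Dixon's 95% critical share of the range for 9 values. Of 52 sets, 9 held such a library, where chance gives about 2.6.

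Heart H3 accounted for 3 of them. Its muscle-side genes had a mean of 0.62 log2 CPM (next -0.74; gap 0.887 of the range), ENSGALG00000006591 stood at 6.86 log2 CPM with a prior count of 0.5 (next 1.0; gap 0.574), and 10364 genes had 10 counts or more after thinning, the lowest of the high altitude hearts (next 11098; gap 0.503). Breast muscle H1 accounted for 2, with 448 genes holding 50% of its counts (next 184; gap 0.617) and the lowest ENSGALG00000006591, 11.22 log2 CPM (next 12.89; gap 0.506). Heart H1 had the lowest heart-side mean among high altitude hearts, 3.76 (next 4.12; gap 0.561), and heart L5 the lowest muscle-side mean among low altitude hearts, -1.08 (next -0.78; gap 0.672). ENSGALG00000010812 was lowest in heart L4 (7.61 log2 CPM, next 9.28; gap 0.685) and highest in breast muscle L9 (-2.17, where L9 alone had counts, next -4.44; gap 0.894).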

How the results depend on the processing

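Of 361 values under other settings, 359 kept their direction and their side of the threshold, or stayed within 1.5 times the count reported. The 2 that did not were the genes past the threshold with a log2 fold change of at least 1 with no filter on low counts, 9576 in place of 6375, and the interaction by DESeq2, 80 genes in place of 0; the cause of the second was not tested, while the first fit tests more genes. Leaving out each of the 36 libraries gave 9725 to 9926 genes past the threshold, 6381 to 6517 with a log2 fold change of at least 1 and 513 to 542 of 32-fold or more. Such fits gave most of the 361 values and share nearly all their libraries, so the 359 are a description. Counts were judged by their total, so the changed split with upper quartile factors was not flagged. The 32-fold genes numbered 375 with a stricter filter on low counts and 451 with limma-voom, in place of 514. A test against a log2 fold change of 1 left 5066 genes in place of 6375. The fits with the code as a replicate block gave 9837, 6370 and 518 genes, 8935 at low altitude, 8549 at high altitude and 0 for the interaction, and changed no call of the named genes, with ENSGALG00000006591 at -15.16 in place of -12.24 and ENSGALG00000015358 at 14.98 in place of 13.61. The correlation of same-code hearts and breast muscles, as deviations from their group means, was positive for all 18 codes (0.06 to 0.35) and over 0.1 for 14. Codes were not taken as pairs because the labels do not say so and the rule asked for over 0.1 in every code. That 9 of 18 hearts and 6 of 18 breast muscles correlated best with their own code is a hint from the data that codes may pair. The permutation tests of library values were not repeated with codes as pairs. Without the 20 most abundant genes 3 of the 4 named genes were not tested. The fits without heart H3 at high altitude and in the interaction, and those without it and the 4 breast muscles, were chosen after seeing the data. Depth limits genes near 0 counts, where fitted changes are no bounds.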
